A study of Mus musculus with 6 samples.

Results

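The 9 genes described here belong to the circadian clock of mouse cells or are driven directly by it: Arntl, Per1, Per2, Per3, Nr1d1, Nr1d2, Dbp, Hlf and Tef. They were chosen by symbol from the 31253 features of the count matrices, and their UMIs (unique molecular identifiers, each standing for 1 captured transcript) were summed over the cells of each type in each of 6 liver libraries. The libraries came from whole livers in 3 groups of 2: control, pre-metastatic and macro-metastatic, the tumour-bearing groups being labelled as an orthotopic model of colorectal cancer. All 6, the controls included, carry the label CT26-GFP, a mouse colon carcinoma line with green fluorescent protein. The labels used here give no strain, age, sex, implantation site or time of collection. Livers were digested with collagenase at 37 °C and freed of erythrocytes and dead cells before capture on the BD Rhapsody platform. Nothing states that the 2 libraries of a group are separate animals, so each p-value measures only the spread between these libraries, which may be technical. Because the hour of collection is not in the labels, an effect of stage and an effect of hour on a clock gene cannot be told apart.

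The molecular clock is a feedback loop of transcription that runs in nearly every cell. CLOCK and ARNTL (also called BMAL1) bind E-box sequences and switch on the Per and Cry genes, whose proteins inhibit that pair, and the Nr1d1 and Nr1d2 genes, whose proteins REV-ERBα and REV-ERBβ repress Arntl through a separate element. The same pair drives Dbp, Hlf and Tef, the PAR bZIP transcription factors, which bind D-box sequences in clock output genes and in other clock genes. In liver this output layer is known for setting the daily rhythm of bile acid, glucose and xenobiotic metabolism. Arntl transcripts therefore peak at an hour when those of Dbp, Tef, Per and Nr1d1 are low, and Per1 is also known to respond quickly to glucocorticoids and cAMP.

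The promoter windows of several of the 9 genes hold letters that match these elements, and they are shown to let the letters of each element be read in its promoter; a match is a description and binding was not measured. RefSeq windows on GRCm38.p6, running from 250 bases before to 50 bases after a start site, were matched for 8 members and searched on both strands for the E-box CACGTG, the D-box TTANGTAA and the REV-ERB/ROR response element, named here without its letters. An E-box was found in 7.15% of the 32851 windows of all genes, a D-box in 2.32% and a REV-ERB/ROR element in 0.44%. The first of the Per1 windows, on the plus strand of chromosome 11 (69098699 to 69098948 for the part shown), held an E-box at -166 from the start site. Both Tef windows on the plus strand of chromosome 15 held one, at -127 (81802423 to 81802672) and at -138 (81811164 to 81811413). The Per3 window on the minus strand of chromosome 4 (151044666 to 151044915) held 2 D-boxes, at -205 and -158. One Arntl window on the plus strand of chromosome 7 held a REV-ERB/ROR element at +28, shown with 10 bases on each side (113207528 to 113207557). These letters were not found in the windows of Dbp, Hlf, Nr1d1 and Nr1d2, in the second Per1 window (69099902 to 69100201) or in the other Arntl window. This says only that they are not in these stretches. The sequences run 5′ to 3′ with the matches in capitals.
Per1, 250 bases before the start: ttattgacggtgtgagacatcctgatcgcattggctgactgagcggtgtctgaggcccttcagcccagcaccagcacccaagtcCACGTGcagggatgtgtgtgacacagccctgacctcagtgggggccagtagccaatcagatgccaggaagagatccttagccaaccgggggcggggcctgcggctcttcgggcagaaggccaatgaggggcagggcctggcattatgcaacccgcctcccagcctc
Per3, 250 bases before the start: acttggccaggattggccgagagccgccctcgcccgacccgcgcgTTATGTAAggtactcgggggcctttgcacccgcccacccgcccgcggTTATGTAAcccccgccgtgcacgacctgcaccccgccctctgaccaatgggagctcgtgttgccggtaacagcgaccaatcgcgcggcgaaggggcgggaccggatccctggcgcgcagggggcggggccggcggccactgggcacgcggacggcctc
Tef, first start, 250 bases before it: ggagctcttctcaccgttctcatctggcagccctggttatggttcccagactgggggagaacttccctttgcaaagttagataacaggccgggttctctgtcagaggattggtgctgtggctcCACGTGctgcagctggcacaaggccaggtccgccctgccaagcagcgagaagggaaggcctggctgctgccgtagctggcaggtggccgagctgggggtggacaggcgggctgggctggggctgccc
Tef, second start, 250 bases before it: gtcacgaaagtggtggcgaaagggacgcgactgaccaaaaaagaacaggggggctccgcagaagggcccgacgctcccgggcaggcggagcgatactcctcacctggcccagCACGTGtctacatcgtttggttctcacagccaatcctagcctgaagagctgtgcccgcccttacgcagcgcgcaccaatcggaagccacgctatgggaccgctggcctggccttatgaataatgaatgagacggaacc
Arntl, element after the start: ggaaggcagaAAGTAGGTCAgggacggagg

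The genes lie on GRCm38 as follows. Arntl spans 113207465 to 113314126 on the plus strand of chromosome 7, and Dbp spans 45705088 to 45710203 on the same strand and chromosome. Per1 lies on chromosome 11 (69095217 to 69109960, plus strand), as do Hlf (90336536 to 90390895, minus strand) and Nr1d1 (98767932 to 98775333, minus strand). Per2 spans 91415982 to 91459324 on the minus strand of chromosome 1, Per3 spans 151003652 to 151044665 on the minus strand of chromosome 4, Nr1d2 spans 18204054 to 18239127 on the minus strand of chromosome 14, and Tef spans 81802421 to 81826863 on the plus strand of chromosome 15. Dbp overlaps Sphk2 on the other strand, Nr1d1 overlaps Thra on the other strand, Tef and Arntl overlap the antisense genes Gm17597 and Gm45355, and Per3 overlaps Camta1 on its own strand. The sources used here do not say whether counting used strand, so reads of these 5 members may include reads of the partner.

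The libraries held 41914149 to 51750676 UMIs in the control and pre-metastatic groups and 88986627 and 90819751 in the macro-metastatic group, and 2404 of 69466 distinct barcodes occurred in more than 1 library. A barcode was given the cell type whose markers it held in the highest share, with at least 3 markers and a runner-up at no more than 0.5 of that share. Classes are therefore ranges of a marker score, and each is called by the type it resembles. The median endothelial cell held 10 of its own markers and 0 neutrophil and 1 Kupffer cell markers in the control libraries, but 11 of its own, 3 and 2 neutrophil and 3 and 2 Kupffer cell markers in the macro-metastatic libraries. The median Kupffer cell held 11 of its own markers throughout, with neutrophil markers at 0 (control), 1 (pre-metastatic), and 4 or 3 (macro-metastatic replicates 1 and 2), and endothelial markers at 2, 2 and 3 in the same order of groups. Every class tested had a UMI for at least 11 of its own 12 markers (10 of 10 for plasmacytoid dendritic cells) in every library. Of 15492 endothelial cells 1619 lay near the limit on the runner-up, as did 1765 of 5634 Kupffer cells, 1266 of 8042 T cells, 309 of 3228 B cells and 160 of 2904 hepatocytes. These were not spread evenly: near the limit lay 188 of 2842 and 167 of 4465 endothelial cells in control against 543 of 1745 and 457 of 2516 in macro-metastatic libraries, and 41 of 214 and 25 of 231 Kupffer cells against 826 of 1724 and 669 of 2060. The part of these cells in the results was not tested beyond the stricter gate among the alternatives. In the libraries of the control, pre-metastatic and macro-metastatic groups, endothelial cells made up 29.9% and 43.0%, 11.9% and 25.3%, and 14.5% and 17.9% of kept barcodes. Neutrophils made up 1.19% and 2.14%, 13.2% and 8.48%, and 28.7% and 25.5%, and hepatocytes numbered 14 and 90 cells in the macro-metastatic libraries. For that reason the values below are given within classes. Levels are CPM, UMIs of the gene scaled to a fixed sum of UMIs of the class (1e6), on TMM-scaled library sizes unless stated otherwise, and they are compared between libraries or classes for 1 gene, not between genes.

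In the control livers the 9 genes were spread unevenly over the cell types. The orders given here cover hepatocytes and the 8 tested classes; sparser classes are given after them. Among these 9 classes Hlf was highest in hepatocytes, at 184 and 344 unscaled CPM in the control libraries, followed by endothelial cells at 109 and 105 CPM. In NK cells, which came next, it was 10.9 and 11.1 CPM, and in B cells it was 0 and 3.20 CPM. Dbp and Tef had the same order at the top: Dbp was 41.0 and 65.7 CPM in hepatocytes and 36.3 and 33.3 CPM in endothelial cells, and at most 7.10 CPM in any control library of the other 7 classes. Tef was 55.4 and 105 CPM in hepatocytes, 37.7 and 41.6 CPM in endothelial cells and 3.62 to 20.3 CPM in the other 7. The ranges of hepatocytes, endothelial cells and the next class did not overlap for any of these 3 genes.

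Of the 9 classes Nr1d1 was highest in endothelial cells (105 and 104 unscaled CPM) and next in Kupffer cells, macrophages that reside in the liver sinusoids (74.4 and 67.1 CPM), and then hepatocytes (27.1 and 45.7 CPM). In lymphocytes, neutrophils and monocytes it was at most 9.0 CPM. Its paralogue Nr1d2 was more even: endothelial cells, hepatocytes, Kupffer cells, NK cells and T cells were at 61.3 to 127 CPM, with each neighbour in the order overlapping the next. B cells followed at 33.4 and 56.8 CPM.

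Arntl, the positive arm of the loop, ran the other way. It was highest in NK cells (54.6 and 57.2 unscaled CPM), T cells (43.7 and 52.3 CPM) and B cells (42.3 and 44.8 CPM), and low in endothelial cells (5.54 and 10.1 CPM) and hepatocytes (2.36 and 3.51 CPM). Neutrophils of the control livers held no Arntl UMI, where 3 counts over the 417386 UMIs of the group would be 7.19 CPM.

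Among the Period genes, Per1 was highest in neutrophils (128 and 86.8 unscaled CPM) and lowest in endothelial cells (8.02 and 8.47 CPM) and hepatocytes (2.95 and 6.52 CPM). Per2 was high in endothelial cells (68.0 and 49.8 CPM), neutrophils (56.8 and 47.0 CPM) and hepatocytes (35.1 and 48.2 CPM), and 0 to 13.7 CPM in the other 6 of the 9 classes. Per3 was highest of the 9 in hepatocytes (23.6 and 24.6 CPM), with endothelial cells at 14.2 and 12.2 CPM and NK cells overlapping them at 16.4 and 5.54 CPM. These orders describe 2 libraries and carry no test.

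Stellate cells and fibroblasts, with 3 and 12 cells in the control libraries, were too few for the order but not low in these genes. Hlf had 2 and 15 UMIs there, or 218 and 448 unscaled CPM (exact Poisson 95% intervals 26.4 to 788 and 251 to 740). Nr1d1 had 4 and 5 UMIs, or 436 and 150 CPM (119 to 1117 and 48.5 to 349), and Per3 had 1 and 4 UMIs, or 109 and 120 CPM (2.76 to 608 and 32.6 to 306). Within each library these point values lie above those of hepatocytes for Hlf and Per3 and of endothelial cells for Nr1d1. Their wide intervals cover counting error only. In the 4 cholangiocytes of control replicate 2, cells of the bile ducts, Per2 had 7 UMIs (820 CPM, interval 330 to 1690).

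**Figure D1:**
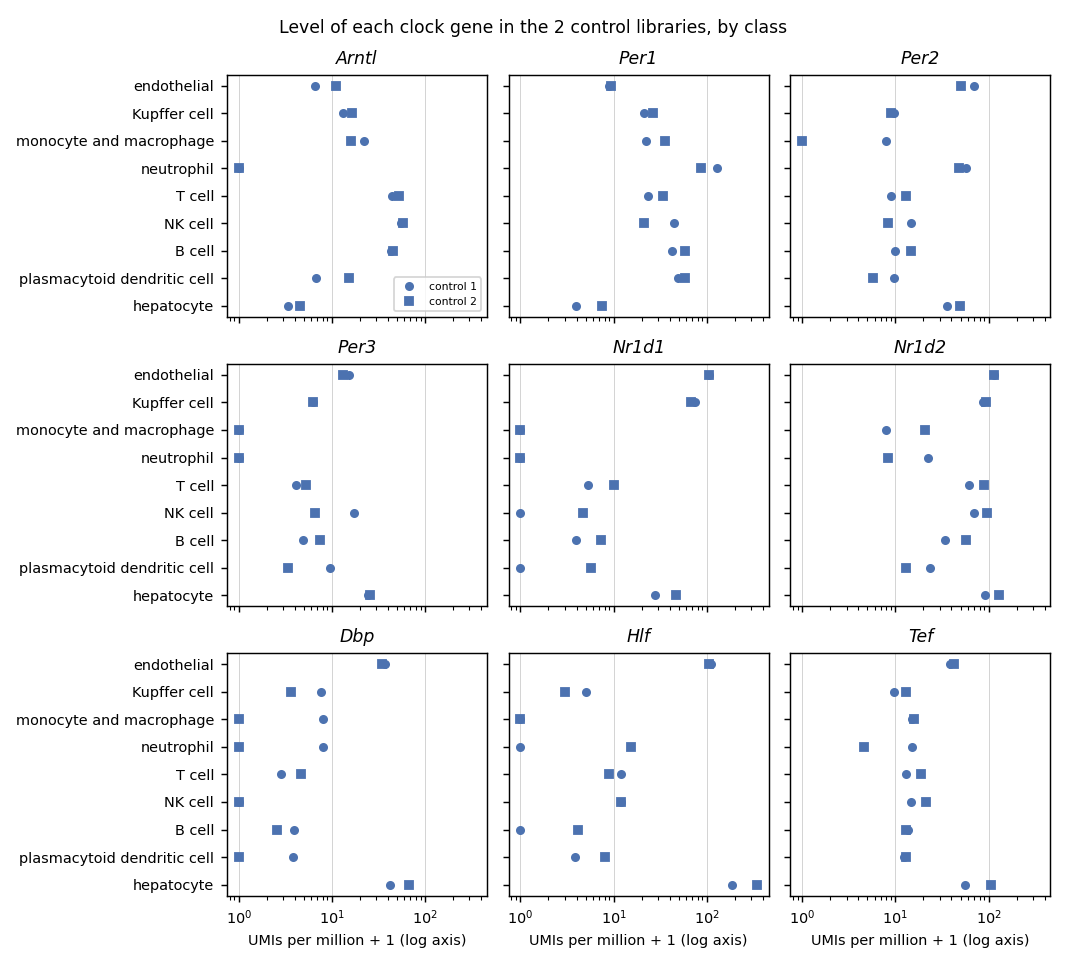
Level of each clock gene in the 2 control libraries (circle and square) by marker-gated class, as unscaled CPM plus 1 on a log axis. Among the 9 classes plotted, Hlf, Dbp and Tef were highest in hepatocytes and endothelial cells, Arntl in NK, T and B cells, and Per1 in neutrophils.

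The comparison of macro-metastatic with control livers asked which of these genes differed at the late stage and in which cells. Of the 72 pairs of a member and a class, 45 passed the filter on low counts in the 8 tested classes, and 9 passed the test (edgeR's quasi-likelihood test, Benjamini-Hochberg adjusted p under 0.05 over all genes of the class). Of these, 5 rose and 4 fell. Of all 71548 gene-by-class tests 16.9% passed, and the members' share was near that background. The calls were in endothelial cells (Hlf, Per2 and Nr1d1 lower, Per1 higher), Kupffer cells (Hlf lower, Tef higher), T cells (Per1 higher) and B cells (Per1 and Nr1d2 higher). Pairs that did not pass the filter are left out of these counts, and those that did pass are not all the members.

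**Figure D2:**
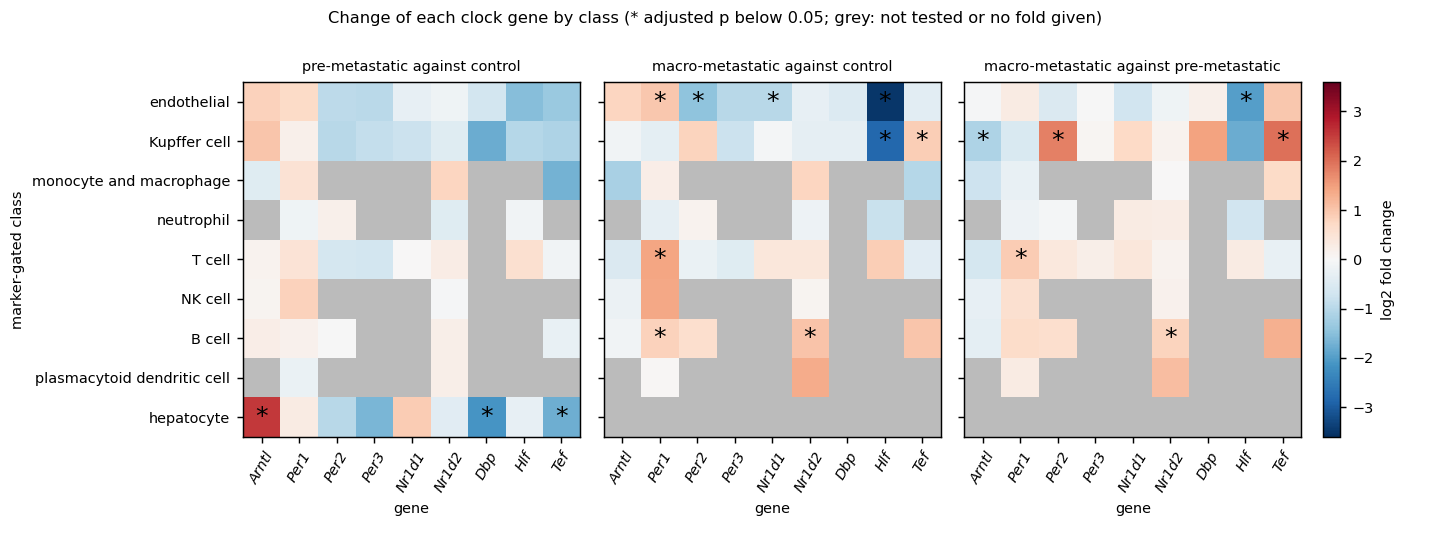
Log2 fold change of each clock gene (columns) in each class (rows) for the 3 comparisons, red for higher and blue for lower in the first-named group, with a star where the adjusted p is below 0.05. Hlf was lower in endothelial and Kupffer cells of macro-metastatic livers. The Kupffer cell value rests on 6 and 3 control UMIs, and its call was lost in most alternatives. The hepatocyte row holds the pre-metastatic comparison only.

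In endothelial cells, where all 9 members could be tested, Hlf had the largest log2 change against control. Its level was 106 and 99.2 CPM in the control libraries, 44.0 and 27.4 CPM in the pre-metastatic libraries and 12.3 and 5.90 CPM in the macro-metastatic libraries. The 3 groups did not overlap, and each later stage was lower. Between macro-metastatic and control libraries Hlf fell by 3.51 in log2 units (SE 0.359; adjusted p = 0.000967), an 11.4-fold difference. The call held in all 16 alternatives run, with log2 values from -4.10 to -3.04. In this comparison 4 of 9 members passed, beside 24.3% of all genes tested in endothelial cells, and the median log2 fold change of the 9 was -0.49 beside -0.02 for all genes.

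The share of endothelial cells with the transcript was lower too. A Hlf UMI was found in 661 of 2842 (23.3%, Wilson 95% interval 21.7 to 24.8) and 891 of 4465 (interval 18.8 to 21.2) control endothelial cells, and in 98 of 1745 (5.62%, 4.63 to 6.80) and 67 of 2516 (2.66%, 2.10 to 3.37) macro-metastatic ones. With every cell thinned to 1000 UMIs the shares were 8.88% of 2680 and 8.86% of 4188 cells against 1.55% of 1548 and 0.688% of 2325 cells, shallower cells being left out. In B cells, where few Hlf UMIs were found, unthinned shares were 0 to 0.513%, at median depths of 1325 to 2230 UMIs against 2705 to 6308 in endothelial cells. The intervals cover counting error only.

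Hepatocytes are the other abundant source of Hlf, and few were captured in the macro-metastatic libraries. The summed level of 12 hepatocyte markers in endothelial cells was 709 and 471 CPM in control, 208 and 270 CPM in pre-metastatic and 159 and 255 CPM in macro-metastatic libraries. At the share of the hepatocyte level that these stand for, hepatocyte RNA would carry 1.87 and 2.87 CPM of Hlf into endothelial cells of the control libraries, which held 109 and 105 unscaled CPM.

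Per2, a repressor in the loop, was 66.1 and 46.9 CPM in control endothelial cells, 34.3 and 25.2 CPM in pre-metastatic ones and 26.1 and 15.2 CPM in macro-metastatic ones. Both tumour-bearing groups lay below the controls, and they overlapped each other. It fell by 1.45 in log2 units in macro-metastatic against control cells (SE 0.297, adjusted p = 0.0129). Without control replicate 1 the log2 value was -1.17 and the call was lost (adjusted p = 0.106).

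Nr1d1, which encodes the repressor REV-ERBα, was 102 and 97.7 CPM in control, 66.5 and 95.6 CPM in pre-metastatic and 45.6 and 55.2 CPM in macro-metastatic endothelial cells. The macro-metastatic libraries were the lowest, both pre-metastatic libraries lay between them and the controls, and the level in macro-metastatic cells fell by 0.98 against control in log2 units (SE 0.198, adjusted p = 0.0121). Without control replicate 1 or 2 the log2 values were -0.94 and -1.02, and neither passed (adjusted p = 0.0850 and 0.0670), nor did the value thinned to 1000 UMIs per cell (-0.71, adjusted p = 0.0713).

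Per1 moved upwards. Its endothelial level was 7.79 and 7.97 CPM in control, 9.86 and 15.0 CPM in pre-metastatic and 12.9 and 18.1 CPM in macro-metastatic libraries, all 4 tumour-bearing libraries lying above the controls. The log2 fold change against control was 0.98 (SE 0.274, adjusted p = 0.0368). After correction for GC content and length it was 0.41 (adjusted p = 0.292), and the call was also lost without control replicate 1 (0.98, adjusted p = 0.162), control replicate 2 (0.99, adjusted p = 0.160) or macro-metastatic replicate 2 (0.73, adjusted p = 0.0920). The summed level of 12 neutrophil markers in the same cells was 132 and 93.8 CPM in control and 801 and 1035 CPM in macro-metastatic libraries. Carried at that share, neutrophil RNA would bring 0.499 and 1.26 CPM of Per1 into macro-metastatic endothelial cells.

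The other 5 members did not pass in endothelial cells. Arntl was 5.38 and 9.47 CPM in control and 9.73 and 16.0 CPM in macro-metastatic cells (log2 0.78, SE 0.361, adjusted p = 0.147). Per3 was 13.8 and 11.5 CPM against 9.02 and 3.596 CPM, and Nr1d2, the level least spread between groups, was 111 and 106 CPM against 81.5 and 94.5 CPM. Dbp differed within the macro-metastatic pair, at 37.1 and 10.5 CPM beside 35.3 and 31.4 CPM in control. Tef was 36.6 and 39.1 CPM in control, 19.2 and 11.4 CPM in pre-metastatic and 35.5 and 23.5 CPM in macro-metastatic libraries, so its lowest values were at the middle stage.

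**Figure D3:**
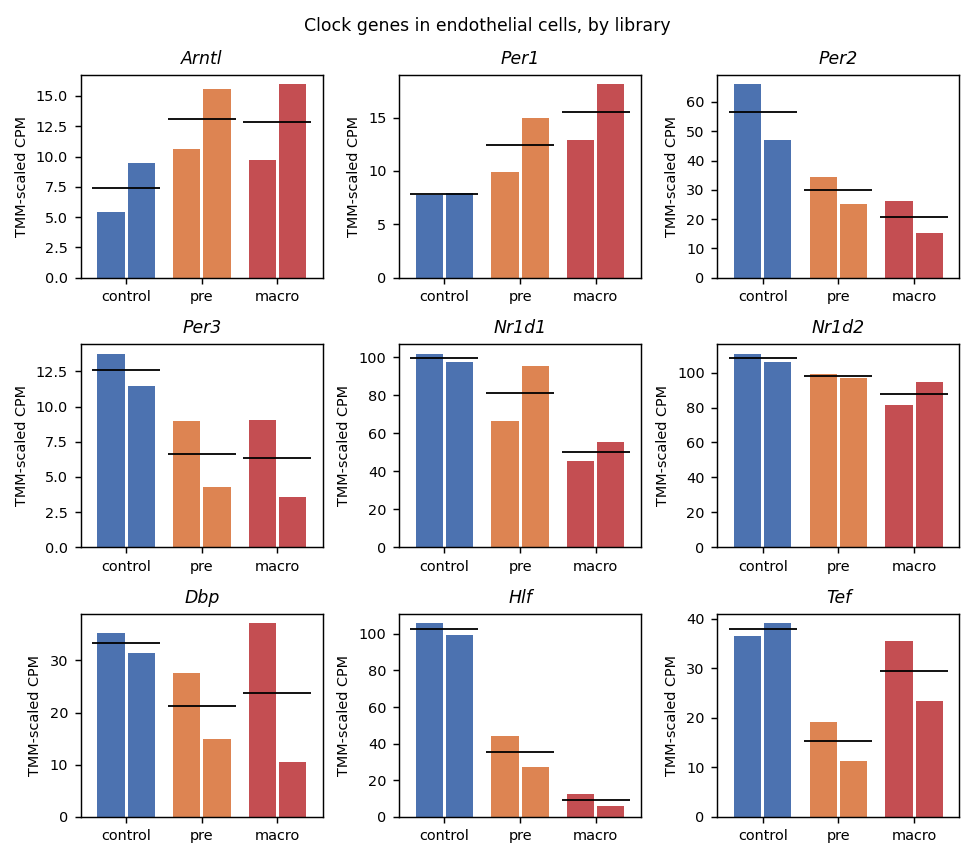
TMM-scaled CPM of the 9 clock genes in endothelial cells, 1 bar per library with group means as lines (n = 2 each; pre and macro stand for pre-metastatic and macro-metastatic). Hlf ran from 106 and 99.2 CPM in control to 12.3 and 5.90 CPM in macro-metastatic libraries, and the 2 macro-metastatic values of Dbp lay far apart.

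Kupffer cells showed a different set, with 2 of 9 members past the test against control beside 17.1% of all genes tested. Tef, an output factor, was 8.60 and 11.3 CPM in control, 4.21 and 5.17 CPM in pre-metastatic and 19.3 and 17.7 CPM in macro-metastatic cells. The macro-metastatic libraries were the highest and the pre-metastatic libraries the lowest, with no overlap. Against control the log2 fold change was 0.89 (SE 0.258, adjusted p = 0.0463), and it was called in 3 of 16 alternatives only. Leaving out any 1 library ended that call, at log2 values of 0.72 (control replicate 1), 1.13 (control replicate 2), 0.91 (pre-metastatic replicate 1), 0.92 (pre-metastatic replicate 2), 0.82 (macro-metastatic replicate 1) and 0.96 (macro-metastatic replicate 2), while DESeq2 gave 0.89 (adjusted p = 0.0990) and the GC and length correction 0.49 (adjusted p = 0.218). Hlf was near the counting limit, with 6 and 3 UMIs in control and 10 and 8 UMIs in the larger macro-metastatic sums (3.97 and 1.88 against 0.478 and 0.327 CPM). It fell by 2.83 in log2 units (SE 0.812; adjusted p = 0.0450), a call that was also lost without any 1 of the 6 libraries (log2 -2.20, -3.26, -2.81, -2.80, -3.10 and -2.56 in the order used for Tef). At the endothelial marker level found in Kupffer cells, endothelial RNA would carry 2.19 and 1.88 unscaled CPM of Hlf into the control Kupffer cells, which held 4.02 and 2.01 CPM.

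Between the 2 tumour-bearing stages the Kupffer cell values stood further apart, with 3 of 9 members past the test beside 21.3% of all genes tested in these cells. Tef rose by 1.99 in log2 units (SE 0.229; adjusted p = 0.000599). Per2 was 4.33 and 3.64 CPM in pre-metastatic and 14.4 and 13.9 CPM in macro-metastatic Kupffer cells, with controls between at 8.60 and 7.53 CPM, and it rose by 1.81 (SE 0.233, adjusted p = 0.00106). In Kupffer cells the 12 neutrophil markers summed to 119 and 134 CPM at the pre-metastatic stage and to 641 and 407 CPM at the macro-metastatic stage. At that share, neutrophil RNA would carry 0.107 and 0.132 CPM of Per2 into the former and 0.342 and 0.280 CPM into the latter. The median Kupffer cell also held 2 endothelial markers at the pre-metastatic and 3 at the macro-metastatic stage. The part of endothelial RNA in the Per2 and Tef values was not tested. Arntl had the opposite order. It was 26.2 and 26.4 CPM in pre-metastatic, 10.7 and 13.5 CPM in macro-metastatic and 11.9 and 14.4 CPM in control cells, and it fell by 1.12 between the stages (SE 0.189, adjusted p = 0.00415). Thinned to 1000 UMIs per cell, Tef (adjusted p = 0.0834) and Arntl (adjusted p = 0.155) kept log2 values of 1.75 and -1.10 but were not called. Per2 was not tested with thinned cells. No member of this trio lost its call when 1 library was left out. Median depth rose from 6520 and 7919 UMIs per Kupffer cell in control to 13580 and 14715 in macro-metastatic libraries.

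Across all 8 classes, 6 of 45 member tests passed between macro-metastatic and pre-metastatic livers (13.3%, beside 14.9% of all gene-by-class tests). Besides the Kupffer trio they were Hlf in endothelial cells, Per1 in T cells and Nr1d2 in B cells. Endothelial Hlf fell by 1.97 (SE 0.352, adjusted p = 0.0123), as 1 of 9 members called beside 13.4% of all endothelial genes. Without pre-metastatic replicate 1 its log2 value was -1.58 and it did not pass (adjusted p = 0.0835).

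In T cells Per1 was the member that passed. It stood at 23.0 and 32.1 CPM in control, 37.6 and 38.6 CPM in pre-metastatic and 60.8 and 80.9 CPM in macro-metastatic cells, 3 groups without overlap. It rose by 1.41 on the log2 scale against control (SE 0.223, adjusted p = 0.00107), a call kept in all 16 alternatives (log2 0.92 to 1.65), as 1 of 8 members tested beside 25.4% of all genes. Against pre-metastatic cells it rose by 0.92 (SE 0.220, adjusted p = 0.0142), beside 19.1% of all genes, and here the call was lost without pre-metastatic replicate 1 (0.90), pre-metastatic replicate 2 (0.93) or macro-metastatic replicate 2 (0.68; adjusted p = 0.106, 0.0571 and 0.198), and after GC and length correction (0.51, adjusted p = 0.0984). The 12 neutrophil markers summed to 50.7 and 62.7 CPM in control T cells and to 867 and 505 CPM in macro-metastatic ones, and NK cell markers to 355 and 342 against 1363 and 907 CPM. At that neutrophil share, 0.540 and 0.615 CPM of Per1 would be carried into the macro-metastatic T cells. The part of the NK cell markers in the result was not tested.

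The remaining T cell values did not pass. Arntl was 44.5 and 51.4 CPM in control and 26.9 and 37.6 CPM in macro-metastatic T cells (log2 -0.51, SE 0.210, adjusted p = 0.0951). Hlf, by contrast with endothelial cells, was 11.2 and 7.86 CPM against 23.9 and 13.96 CPM (log2 0.88, SE 0.381, adjusted p = 0.112).

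In B cells 2 of 5 tested members passed against control, beside 18.4% of all genes. Nr1d2 was 34.5 and 56.6 CPM in control, 52.7 and 54.9 CPM in pre-metastatic and 105 and 86.6 CPM in macro-metastatic libraries, only the last group standing apart. It rose by 1.02 in log2 units (SE 0.246; adjusted p = 0.00438). Per1 was 42.6 and 56.6 CPM in control, 47.6 and 63.3 CPM in pre-metastatic and 89.9 and 87.4 CPM in macro-metastatic libraries, and rose by 0.82 (SE 0.237, adjusted p = 0.0158). The 12 neutrophil markers in B cells summed to 69.8 and 41.6 CPM in control and 902 and 586 CPM in macro-metastatic libraries, a share at which 0.155 and 0.0835 CPM of Per1 would be carried into the control and 0.561 and 0.713 CPM into the macro-metastatic B cells. Without control replicate 1 both calls were lost, at log2 values of 0.72 for Nr1d2 (adjusted p = 0.0811) and 0.64 for Per1 (adjusted p = 0.134), and Per1 was also lost without macro-metastatic replicate 2 (0.84, adjusted p = 0.0656) and after GC and length correction (0.37, adjusted p = 0.293). Against pre-metastatic B cells Nr1d2 rose by 0.80 (SE 0.247, adjusted p = 0.0277), beside 14.6% of all genes, and lost the call without either pre-metastatic library (0.77 and 0.82) or macro-metastatic replicate 1 (0.69). DESeq2 called none of these B cell values (adjusted p = 0.0525 for Nr1d2 and 0.153 for Per1 against control, and 0.210 for Nr1d2 against pre-metastatic cells). Tef was 13.2 and 11.9 CPM in control and 30.0 and 22.1 CPM in macro-metastatic B cells (log2 1.00, SE 0.435, adjusted p = 0.113).

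**Figure D4:**
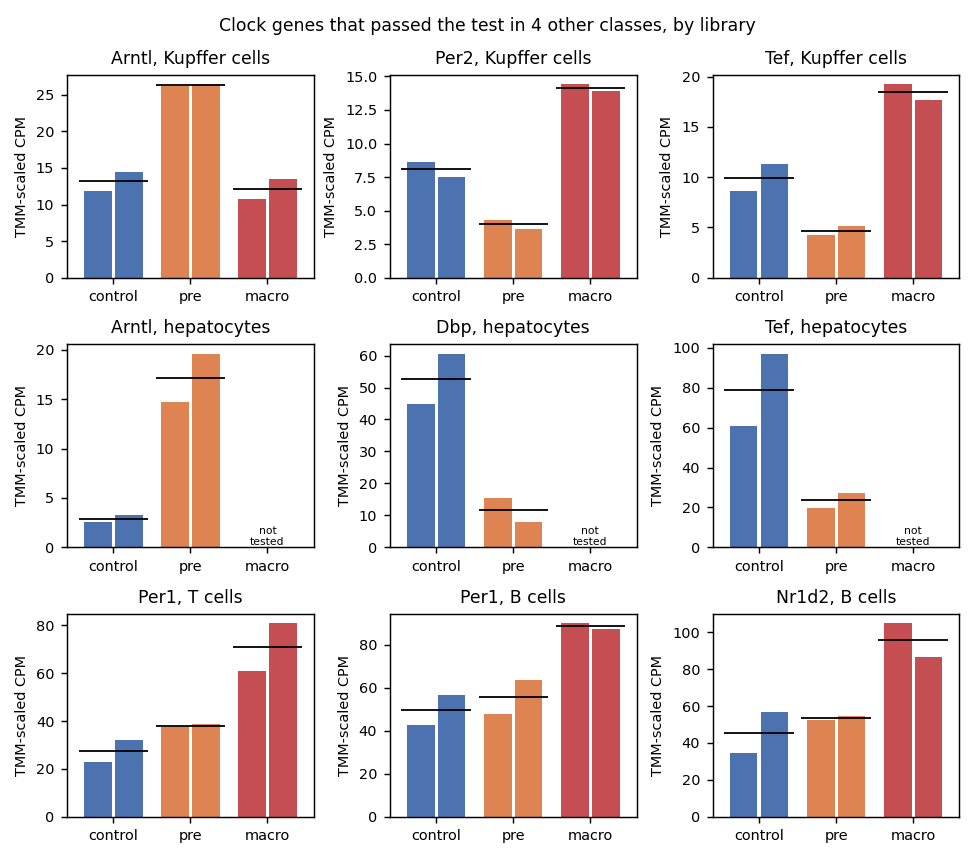
TMM-scaled CPM by library of members that passed a test in Kupffer cells, hepatocytes, T cells or B cells, 1 bar per library with group means as lines (n = 2 each). In Kupffer cells Arntl was highest, and Per2 and Tef lowest, in the pre-metastatic libraries, and in hepatocytes Arntl was higher and Dbp and Tef lower in pre-metastatic than in control libraries.

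No member passed in neutrophils, NK cells, monocytes and macrophages, or plasmacytoid dendritic cells in any of the 3 comparisons by edgeR's test, where 5 of the 42 tests had an unadjusted p under 0.05. Over all genes and all 8 classes, 22608 (macro-metastatic against control), 4984 (pre-metastatic against control) and 21476 (macro-metastatic against pre-metastatic) of 71548 tests did. In neutrophils Per1 ranged from 56.5 to 121 CPM and Per2 from 46.3 to 58.7 CPM over the 6 libraries, with the 3 groups overlapping for Per1. Nr1d1 had no UMI in control neutrophils and 58 UMIs in each macro-metastatic library (7.55 and 8.13 CPM). The control group is too shallow to bound a fold, since 3 counts over it would be 7.19 unscaled CPM, and the comparison was not called (unadjusted p = 0.0211, adjusted p = 0.117, edgeR's quasi-likelihood test). In NK cells Per1 was 44.7 and 20.2 CPM in control and 46.9 and 101.2 CPM in macro-metastatic libraries (log2 1.40, SE 0.455, adjusted p = 0.0780).

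The pre-metastatic stage was compared with control to ask whether the clock genes had moved before macro-metastases. None of the 45 member tests in the 8 classes passed in edgeR, beside 0.182% of all gene-by-class tests. By unadjusted p under 0.05 there were 11, beside 4984 of all 71548 gene-by-class tests. Of the 11, 4 were in endothelial cells, 6 in Kupffer cells and 1 in neutrophils. DESeq2 called 2. In endothelial cells the libraries of the 2 groups did not overlap for any of the 9 members, 7 lower and 2 higher, beside 44.4% of all genes tested there. In Kupffer cells 8 of 9 did not overlap, 6 lower and 2 higher, beside 39.5% of all genes. The 2 higher members were Per1 and Arntl in both classes.

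None of the single values below passed the test. In Kupffer cells Arntl had a log2 fold change of 1.00 (SE 0.239, adjusted p = 0.348), while Tef was at -1.10 (SE 0.297, adjusted p = 0.438), Per2 at -0.999 (SE 0.308, adjusted p = 0.506) and Dbp at -1.78 (SE 0.65, adjusted p = 0.554). In endothelial cells Arntl was at 0.82 (SE 0.367, adjusted p = 0.599), Hlf at -1.54 (SE 0.329, adjusted p = 0.123), Tef at -1.34 (SE 0.291, adjusted p = 0.127) and Per2 at -0.93 (SE 0.297, adjusted p = 0.321). In T cells Arntl was 44.5 and 51.4 CPM against 51.2 and 52.5 CPM, and in B cells 43.6 and 44.6 CPM against 54.7 and 49.6 CPM. Each of these comparisons uses the same control livers.

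Hepatocytes, the liver's main metabolic cells, could be compared only between the control and pre-metastatic libraries, in a fit of those 4 libraries chosen after the cell counts were seen. Here 3 of 9 members passed, beside 0.905% of the 9505 genes tested. Arntl was 2.59 and 3.24 CPM in control and 14.7 and 19.6 CPM in pre-metastatic hepatocytes, from 8 and 7 UMIs against 65 and 50 UMIs. The groups lay far apart, and it rose by 2.55 in log2 units (SE 0.388; adjusted p = 0.0317). Dbp went from 44.9 and 60.6 CPM to 15.4 and 7.84 CPM, and fell by 2.11 (SE 0.317, adjusted p = 0.0305). Tef went from 60.8 and 97.1 CPM to 19.9 and 27.1 CPM, and fell by 1.76 (SE 0.284, adjusted p = 0.0350).

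The other 6 members did not pass. Hlf, the third PAR bZIP factor, was 202 and 317 CPM in control and 160 and 262 CPM in pre-metastatic hepatocytes, overlapping ranges (log2 -0.30, SE 0.302, adjusted p = 0.769). Per3 was 25.9 and 22.7 CPM against 9.04 and 5.88 CPM (log2 -1.66, SE 0.307, adjusted p = 0.0577), Per2 was 38.5 and 44.4 CPM against 25.5 and 14.9 CPM, and Nr1d1 was 29.7 and 42.1 CPM against 54.7 and 80.4 CPM (log2 0.91, SE 0.266, adjusted p = 0.196). The libraries of the 2 groups did not overlap for 7 of 9 members, 5 lower and 2 higher, beside 42.8% of all genes tested.

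The hepatocyte calls rest on few libraries. Without control replicate 1, Arntl (log2 2.37, adjusted p = 0.156) and Dbp (-2.33, adjusted p = 0.0592) did not pass. Without control replicate 2, Arntl (2.69, adjusted p = 0.0780), Dbp (-1.90, adjusted p = 0.0882) and Tef (-1.40, adjusted p = 0.0822) did not, and Tef was also lost without pre-metastatic replicate 1 (-1.54, adjusted p = 0.0763). In the macro-metastatic libraries the 14 and 90 hepatocytes summed to 17783 and 248384 UMIs. In the larger of these Hlf had 23 UMIs, or 92.6 unscaled CPM (exact Poisson 95% interval 58.7 to 139), Arntl had 10 UMIs, or 40.3 CPM (19.3 to 74.0), and Dbp had none, where 3 counts would be 12.1 CPM. These are single-library values without a test, and the intervals cover counting error only.

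The changes were also compared between classes. The part of the hour of collection in them was not tested, since the labels do not give it. Only Nr1d2 and Per1 passed the filter in all 8 classes, and hepatocytes are not among these classes. In the mean over the classes, each weighted equally, neither passed between macro-metastatic and control livers (limma: Nr1d2 log2 0.34, SE 0.150, adjusted p = 0.116; Per1 0.37, SE 0.219, adjusted p = 0.229), beside 31.1% of the 4967 genes tested. Neither did between pre-metastatic and control livers (Per1 0.29 and Nr1d2 0.07), beside 0.121% of genes. No member of this pair had an unadjusted p under 0.05 in either comparison.

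The change did differ between the classes for both. The test of class-by-group terms gave an adjusted p of 0.00991 for Nr1d2 and of 0.000786 for Per1 in macro-metastatic against control livers (edgeR's quasi-likelihood F test), beside 28.0% of all genes. Nr1d2 had log2 values of -0.30 in endothelial cells, -0.31 in Kupffer cells and 1.02 in B cells, and Per1 of 0.98 in endothelial cells, -0.35 in Kupffer cells and 1.41 in T cells. Without control replicate 1 the Nr1d2 difference did not pass (adjusted p = 0.240), and without control replicate 2 neither did (0.0535 for Nr1d2 and 0.0570 for Per1). For pre-metastatic against control livers neither difference passed, also not at an unadjusted p of 0.05, beside 1.85% of genes.

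Pairs of classes, chosen after the values were seen, allowed more members to be compared. Between endothelial and Kupffer cells 2 of 9 members changed differently in macro-metastatic against control livers, beside 3.7% of 10965 genes. Per2 had a change lower by 2.30 on the log2 scale in endothelial cells (log2 difference -2.30, SE 0.343, adjusted p = 0.00808), and Per1 a change higher by 1.33 (SE 0.289, adjusted p = 0.0397). Without control replicate 1 or 2 neither was called (Per2 -2.13 and -2.47, Per1 1.45 and 1.17), and Per1 was not called without pre-metastatic replicate 2 (1.30, adjusted p = 0.0512). Per2 was thus lower than control in endothelial cells, while in Kupffer cells it was 8.60 and 7.53 CPM in control and 14.4 and 13.9 CPM in macro-metastatic libraries (log2 0.81, SE 0.268, adjusted p = 0.0702). For Hlf the difference between these classes was -0.71 (SE 0.760, adjusted p = 0.683). In the pre-metastatic comparison no member differed between endothelial and Kupffer cells, beside 0.766% of genes, and none had an unadjusted p under 0.05.

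Between endothelial and T cells 2 of 8 members differed, beside 8.52% of 10225 genes. The Hlf change was lower in endothelial cells by 4.52 on the log2 scale (log2 difference -4.52, SE 0.456, adjusted p = 0.000873), a call kept in all 13 alternatives. The Arntl change was higher by 1.40 (SE 0.294, adjusted p = 0.0216), with Arntl going from 5.38 and 9.47 to 9.73 and 16.0 CPM in endothelial cells and from 44.5 and 51.4 to 26.9 and 37.6 CPM in T cells. This call was lost without control replicate 1 (1.15, adjusted p = 0.138) or macro-metastatic replicate 2 (1.26, adjusted p = 0.137). In the pre-metastatic comparison none of the 8 passed in edgeR, beside 0.0% of genes called. An unadjusted p under 0.05 was found for 3 of the 8, beside 572 of 10225 genes.

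Other genes of the clock were read from a list of 17 further components. In endothelial cells 14 were tested and 6 passed between macro-metastatic and control livers, 4 rising and 2 falling, beside 24.3% of all genes tested there, with a median log2 of -0.12 beside -0.02 for all genes. Bhlhe40 and Nfil3, which encode repressors of E-box and D-box genes, rose by 2.26 (SE 0.328, adjusted p = 0.00350) and 3.02 (SE 0.429, adjusted p = 0.00318). In the mean over the 8 classes they rose by 1.71 (SE 0.190, adjusted p = 0.000407, limma) and 1.48 (SE 0.152, adjusted p = 0.000271), as the 2 called of 9 tested, beside 31.1% of all genes. The next in that order was Csnk1d, which encodes a kinase of PER proteins, at 0.32 (SE 0.118, adjusted p = 0.0722). Genes of these lists named below for hepatocytes or endothelial cells were chosen after their values were seen. In pre-metastatic hepatocytes, where 0.905% of all genes passed, 1 of 13 did: Ciart, a repressor of the loop, which fell by 1.99 (SE 0.314, adjusted p = 0.0326).

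A list of 15 further clock-controlled genes held 3 calls among 14 tested in pre-metastatic hepatocytes, all lower, beside 0.905% of all genes, with a median log2 of -1.05 beside 0.00 for all genes. They were Wee1, a kinase of the cell cycle (-2.61, SE 0.275, adjusted p = 0.00910), Usp2, a ubiquitin protease (-2.46, SE 0.264, adjusted p = 0.00925), and Gys2, the liver glycogen synthase (-1.48, SE 0.203, adjusted p = 0.0219). In macro-metastatic endothelial cells 8 of 15 passed, 3 rising and 5 falling, beside 24.3% of all genes. The 5 that fell were Cyp2a5, Gys2, Upp2, Ppara and Wee1. Of these, Cyp2a5, Gys2, Upp2 and Ppara are known mainly from hepatocytes, whose markers fell in the same cells. The part of hepatocyte RNA in the fall of any of the 5 was not tested. In the mean over classes 1 of 2 passed, Klf10, a transcription factor (1.06, SE 0.185, adjusted p = 0.00365), and Nampt was at 0.33 (adjusted p = 0.0971).

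Inputs known to act on Per1 were read the same way, beside 24.3% of all genes called in endothelial cells, 31.1% in the mean over classes, 25.4% in T cells and 18.4% in B cells. Of 12 glucocorticoid-responsive genes, 7 rose and none fell in macro-metastatic endothelial cells (median log2 1.43), and of 8 tested in the mean over classes 5 rose and 1, Tsc22d3, fell (median 1.18 beside 0.01 for all genes). The metallothionein genes Mt1 and Mt2 rose by 5.03 (SE 0.335, adjusted p = 4.5e-05) and 5.41 (SE 0.428, adjusted p = 0.000101), and Il1r2, a decoy receptor of interleukin 1, by 2.61 (SE 0.143, adjusted p = 3.0e-05). Il1r2 is also among the neutrophil markers of the gate, whose summed level rose in endothelial, T and B cells. The part of neutrophil RNA in its rise was not tested. Of 7 tested cAMP-responsive genes 5 rose in endothelial cells and 5 in the mean over classes (median 1.10), among them Crem, Fosl2 and Pde4b at 1.33, 1.34 and 0.73. Of 20 immediate-early and heat-shock genes, which also respond to cell isolation, 13 rose and none fell in endothelial cells, while in the mean over classes 6 rose and 5 fell (median -0.04), Fos falling by 1.57 and Hspa8 and Fosb rising by 1.94 and 2.41. In T cells 4 rose and 9 fell, and in B cells 6 rose and 3 fell. Their part in the changes of the clock genes was not tested.

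Likeness between genes was described over the 48 sums of 8 classes and 6 libraries, centred by class, among 2998 genes with at least 20 CPM on average in every class. These sums share libraries and depth, so the values carry no test. The genes most like Dbp were Mrpl24 (Pearson r = 0.55), Plekha2 (0.55) and Uqcrb (0.54), and among the members Tef was at 0.56 and Per2 at 0.37. Those most like Arntl were Man1a (0.72), Fbxw2 (0.68) and Ahcyl1 (0.67), with Tef at -0.46 and Dbp at -0.18.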

How the data were processed

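The 6 single-cell libraries of mouse liver (3 groups of 2) were deposited as matrices of UMI counts per gene and barcode. Per the submitters' processing notes the tools included CASAVA 1.8 and UMI-tools with genome build mm10. For aligner, annotation and strand, the entry is: not given in the sources used here. Counts deposited by the authors were used as they stand, 1 matrix per library.

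A barcode was kept if it held 300 or more genes and less than 25% of its UMIs were mitochondrial. Kept barcodes were assigned to 16 marker classes, and no doublet caller was run. Barcodes whose runner-up class exceeded 0.5 of the top share stayed unassigned, while those below that limit were kept and can hold markers of another class. Counts were summed per library and class, and 8 classes with at least 20 cells in every library were tested. Each class was fitted over all 6 libraries (3 residual degrees of freedom) with edgeR 4.0.16 (TMM scaling, filter on low counts, quasi-likelihood test) in R 4.3.3, with Benjamini-Hochberg adjustment over all genes of the class and calls at 0.05. Means over classes used limma 3.58.1 on log2 CPM with a prior count of 2. Differences between classes used edgeR with the library as a block. Alternatives included DESeq2 1.42.0, other scaling, filters, gates, thinning to 1000 UMIs, GC and length correction, the replicate block and leaving out each library. The hepatocyte fit (2 residual degrees of freedom), the pairs of classes and the means over classes with at least 100 cells were added after seeing the data.

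On simulated counts for endothelial cells, tested for the macro-metastatic comparison over 12581 genes, 83 of 100 genes changed 2-fold and 99 of 100 changed 4-fold were called. For NK cells, over 6130 genes, these were 44 and 97 of 100. The simulation gave all genes the same fixed spread, not that of these libraries, and changed only genes above a minimum expected count. Its shares therefore need not hold for the members. With endothelial, T and B cells simulated, the mean over classes called 86 of 100 genes changed 4-fold in T cells only. A call in that mean therefore need not be a shift shared by all classes. An exact permutation test of 2 against 2 libraries could not pass 0.05 and was not used. All members were reported, other listed genes were counted and up to 3 per list named by adjusted p in the mean over classes, and likeness was listed for Dbp and Arntl. The members and lists were chosen with earlier results of these data known.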

Additional observations from a re-analysis of the deposited data

Results flagged for a closer look

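The changes of 5 members between macro-metastatic and control livers differed between cell types by a test of the difference itself. Over all 8 classes the adjusted p was 0.00991 for Nr1d2 and 0.000786 for Per1, the 2 members tested, beside 28.0% of all genes called. Between endothelial and Kupffer cells it was 0.00808 for Per2 and 0.0397 for Per1, 2 of 9 members, beside 3.7% of genes. Between endothelial and T cells it was 0.0216 for Arntl and 0.000873 for Hlf, 2 of 8 members, beside 8.52% of genes. Of these calls only that of Hlf was kept under every alternative. Each p here is from edgeR's quasi-likelihood test with Benjamini-Hochberg adjustment. Per2, Arntl and Hlf were tested in that way in pairs of classes only, and these pairs were chosen after the values were seen.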

How the results depend on the processing

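Of 24 calls of single members, 4 were kept under every alternative in which they were tested: endothelial Hlf and T cell Per1 against control, Kupffer cell Per2 between the tumour-bearing stages, and the Hlf difference between endothelial and T cells. Kupffer cell Per2 had 15 alternatives, without the thinned cells, where Tef and Arntl had 16 and lost their calls with thinned cells. Over 350 alternatives of the 24 calls, 274 kept the call, 76 lost it and 0 reversed it, and the cause was not tested. Members called in single classes against control, 9 at the macro-metastatic stage, were 4 with thinned cells and 2 to 11 with 1 library left out. At the pre-metastatic stage, where edgeR called 0, DESeq2 called 2, no filter on low counts 6, the replicate block 1, the block with GC and length correction 3, and leaving out 1 library 0 to 2. Between the stages, 6 became 11 without the filter, 2 with thinned cells and 3 to 9 with 1 library left out. In the mean over classes, 0 became 1 without the filter, with GC and length correction, and with the replicate block and that correction, and 0 to 1 with 1 library left out. For the difference between classes, 2 became 6 without the filter and 0 to 2 with 1 library left out. Between endothelial and Kupffer cells, 2 became 4 without the filter, 1 with the stricter gate, 0 with thinned cells, 1 with under 10% mitochondrial UMIs and 0 to 3 with 1 library left out. Between endothelial and T cells, 2 became 4 without the filter, 1 with thinned cells and 1 to 3 with 1 library left out. In hepatocytes, 3 became 6 without the filter, 6 with the replicate block, 1 with thinned cells and 0 to 3 with 1 library left out. With thinned cells no member could be tested in the mean or the difference over all classes. The share of all genes called was not counted under each alternative. These counts therefore do not tell a change in the members from a change in all genes.

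Libraries with the same number correlated from -0.128 to 0.302 in their deviations from the group means. Whether they share more than the number was not tested. With the replicate block 9 members were called in single classes at the macro-metastatic stage. GC and length correction moved the median of all genes by over 0.1 in some classes, to -0.251 in neutrophils against control (0.104 without it). Small classes limit what could be seen: macro-metastatic NK cells numbered 34 in 1 library.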
